A study of Rattus norvegicus with 4 samples.

Results

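Kinesins are the motor proteins that walk along or reshape microtubules. The 32 kinesin genes of a rat Schwann cell (SC) count table were taken as the rows whose symbols match Kif followed by a number, or Kifc followed by a digit, out of 17949 genes in all. They were divided by known role into 10 mitotic kinesins, 14 transport kinesins and 8 others. Of these genes, 31 had at least 10 counts in at least 2 samples and were tested, among 12446 genes tested in the whole table. The mitotic kinesins Kif4a and Kif14, and the transport kinesins Kif1a, Kif17 and Kif21a, were not analysed here. Kif1bp, Kif28p and Kifap3 have symbols that the pattern does not take, and were left outside the family.

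All kinesins share a motor domain that binds microtubules and uses ATP. One set of them builds the spindle, moves or holds the chromosomes and finishes cell division, and the genes for this set are transcribed mainly in G2 and M phase of cycling cells. Another set carries organelles, vesicles and RNA through the cytoplasm in dividing and resting cells alike, which in SCs includes the long processes that wrap axons.

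The RNA-seq compared primary rat SCs from sciatic nerve infected with Lenti-AS, a lentivirus that carries the Egr2 promoter antisense RNA (Egr2-AS), with SCs infected with Lenti-GFP, 2 samples in each group. All cells were grown in DMEM with 10% FBS, 4 µM forskolin and 5 ng/ml heregulin-β1, so both groups received the agents that keep SCs dividing in culture. Cells were infected at 2 UFC per cell in the presence of polybrene and collected at 48 h, and RNA was sequenced as 50 bp paired-end reads. The vectors differ in more than the insert, since Egr2-AS was placed in a DsRed-Express2 vector and the control was an AcGFP1 vector, and no DsRed vector without Egr2-AS is among the samples. Neither the strain nor the age of the rats is given in the sources used here. The study's methods call the replicates biological and do not say whether these were separate animals or separate cultures, and the p-values measure the spread between these samples only.

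Library totals lay between 74024323 and 96185890 counts per sample, and each kinesin value below is in CPM, the count divided by the scaled library size. Genes were called where edgeR's quasi-likelihood test gave an adjusted p under 0.05 over all genes tested and the fitted fold change was at least 1.3. The SC markers S100b and Erbb3 were detected in every sample, at 2027 to 2358 CPM and at 448 to 562 CPM. Egr2 itself stood at 49.2 and 42.2 CPM in Lenti-GFP and 61.2 and 54.0 CPM in Lenti-AS (log2 change 0.33, adjusted p = 0.152, not called). At the level of protein, the paper reports lower EGR2 with Lenti-AS. Whether Egr2-AS shares sequence with the counted Egr2 exons was not checked. If it does, its reads cannot be told apart from Egr2 where the counting ignored strand, a setting not given in the sources used here. The 2 Lenti-AS samples stand apart from each other for part of the table. Sox10 was at 163 CPM in Lenti-AS 1 and 61.3 CPM in Lenti-AS 2, and the fibroblast collagen Col1a1 at 2131 and 290.1 CPM.

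The promoters of the kinesins are shown first, because they can be read without the counts. RefSeq promoters on the GRCr8 build, 250 bases before to 50 bases after the start, matched 24 of the 32 kinesins by symbol. These were 10 mitotic, 9 transport and 5 other kinesins. The windows were searched on both strands for TTTGAA and for CCAAT, which do not overlap each other as words. TTTGAA is the core of the cell cycle genes homology region (CHR), an element known from genes of G2 and M phase, and CCAAT is the core of the box that NF-Y binds, which often lies upstream of a CHR. Stretches with matches from 5 mitotic kinesins, from Kif26b and from the transport kinesin Kif5b are given as the 160 bases before the start, 5′ to 3′ along the gene, with capitals marking TTTGAA or CCAAT on either strand (TTCAAA and ATTGG when read on the opposite one).
Kifc1 (GRCr8, chr20:5000769-5000928, plus strand): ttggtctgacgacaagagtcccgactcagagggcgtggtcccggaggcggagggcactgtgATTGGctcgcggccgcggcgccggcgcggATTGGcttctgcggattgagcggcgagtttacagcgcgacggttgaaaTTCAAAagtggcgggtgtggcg
Kif22 (GRCr8, chr1:191080879-191081038, minus strand): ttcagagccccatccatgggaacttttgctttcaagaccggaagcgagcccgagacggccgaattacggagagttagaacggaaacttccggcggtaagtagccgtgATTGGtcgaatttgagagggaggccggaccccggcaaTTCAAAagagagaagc
Kif23 (GRCr8, chr8:71320585-71320744, minus strand): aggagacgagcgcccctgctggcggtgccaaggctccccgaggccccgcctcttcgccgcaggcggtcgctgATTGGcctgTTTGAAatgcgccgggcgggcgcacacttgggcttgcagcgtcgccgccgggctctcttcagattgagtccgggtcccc
Kif20b (GRCr8, chr1:241840856-241841015, plus strand): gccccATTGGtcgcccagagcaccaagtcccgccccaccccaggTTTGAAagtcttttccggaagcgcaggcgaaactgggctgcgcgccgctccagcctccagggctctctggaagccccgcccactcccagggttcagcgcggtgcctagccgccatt
Kif11 (GRCr8, chr1:244536707-244536866, plus strand): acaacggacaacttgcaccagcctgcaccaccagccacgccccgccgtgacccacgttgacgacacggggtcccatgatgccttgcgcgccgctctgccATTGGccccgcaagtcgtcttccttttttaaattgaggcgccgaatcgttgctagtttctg
Kif26b (GRCr8, chr13:92815267-92815426, plus strand): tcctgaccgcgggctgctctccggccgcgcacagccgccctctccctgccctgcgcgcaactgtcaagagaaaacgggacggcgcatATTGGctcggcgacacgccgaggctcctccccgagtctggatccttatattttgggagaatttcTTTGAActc
Kif5b (GRCr8, chr17:56185226-56185385, plus strand): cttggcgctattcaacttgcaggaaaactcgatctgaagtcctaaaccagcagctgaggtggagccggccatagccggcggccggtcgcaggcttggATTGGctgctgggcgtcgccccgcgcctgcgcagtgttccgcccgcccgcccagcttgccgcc

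TTTGAA was found in 5 of the 10 mitotic promoters (Kif15, Kif20b, Kif22, Kif23 and Kifc1) and in 0 of the 9 transport promoters. For comparison, 19.4% of all 27457 RefSeq promoters held it, as did 1135 of the 9487 tested genes with a promoter. CCAAT was found in 6 of 10 mitotic promoters (Kif11, Kif20a, Kif20b, Kif22, Kif23 and Kifc1) and in 3 of 9 transport promoters (Kif1b, Kif3b and Kif5b), against 39.6% of all promoters. Both words stood together in Kif20b, Kif22, Kif23, Kifc1 and, among the other kinesins, Kif26b, and in 0 transport promoters. The pair is present in 7.96% of all promoters and in 4.96% of those of tested genes. In Kifc1 the TTTGAA match began 22 bases before the start, with CCAAT matches at 70 and 99 bases, and in Kif22 the nearest matches were at 16 and 53 bases. Kif26b had a similar order, with TTTGAA at 9 bases and CCAAT at 73 bases before the start. Kif2c, Kif18a and Kif18b held neither word, so the presence of these letters did not separate the mitotic kinesins that were called from those that were not. A match is a description of the letters and was not tested as a binding site.

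**Figure D1:**
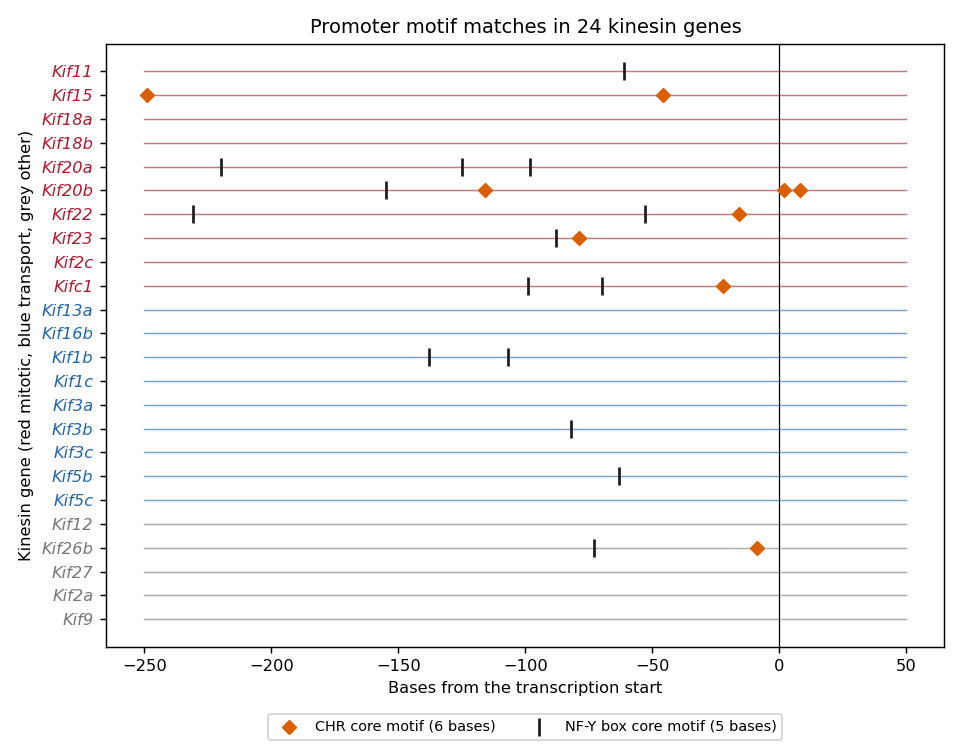
Positions of the TTTGAA and CCAAT matches on either strand in the promoters of 24 kinesin genes, plotted as bases from the transcription start, with diamonds for the CHR core and vertical ticks for the NF-Y box core; each line is 1 gene's window. Diamonds appear on 5 of the 10 mitotic lines, on 0 of the 9 transport lines and on Kif26b.

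To determine whether the motors of cell division differed after expression of the Egr2-AS, the 10 mitotic kinesins were compared between Lenti-AS and Lenti-GFP. All 10 were higher in both Lenti-AS samples than in both Lenti-GFP samples, and 5 of them (Kif11, Kif20a, Kif2c, Kif20b and Kif23) were called higher. Over all genes tested, 1.31% were called higher, and 27.7% had both Lenti-AS samples above both Lenti-GFP samples. The fitted log2 fold changes ran from 0.15 to 0.81 with a median of 0.45, a fold of 1.36, where the median of all genes tested was 0.0071. The other 5 mitotic kinesins had unadjusted p-values under 0.05 and adjusted p-values from 0.0598 to 0.223. When 1 of the 4 samples was left out, the median change of the 10 stayed between 0.42 (without Lenti-AS 1) and 0.47 (without Lenti-AS 2). The calls were less stable. They were lost without either Lenti-GFP sample, as were the higher calls of the whole table. Leaving out a Lenti-AS sample instead raised the number called in the whole table as well as among the mitotic kinesins. In each of these 4 fits all 10 fitted changes were above 0. Each such fit has 1 sample in one group, which is assumed to vary like the pair in the other, so its p-values and calls rest on the spread of a single pair. These are bulk RNA samples, in which a greater number of dividing cells and more RNA per dividing cell cannot be told apart.

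Among the motors that set up the spindle, Kif11 slides antiparallel microtubules apart and so separates the poles. It was at 97.3 and 95.3 CPM in Lenti-GFP and at 134 and 132 CPM in Lenti-AS. The groups were far apart relative to their spread, and the change was 0.46 ± 0.05 (log2 fold change ± SE, adjusted p = 0.0252), a fold of 1.38. Kif15, which can take over part of the work of Kif11 in holding a bipolar spindle, was at 36.8 and 37.2 CPM in Lenti-GFP and at 45.4 and 44.6 CPM in Lenti-AS. The samples of each group lay close together and the groups did not overlap, but the change of 0.28 ± 0.06 did not pass the test (adjusted p = 0.0874). Kifc1 is a minus-end-directed motor that bundles microtubules and focuses the poles. Its values were 27.2 and 25.8 CPM in Lenti-GFP and 46.1 and 36.4 CPM in Lenti-AS. Here the 2 Lenti-AS samples differed from each other by about as much as the lower of them differed from the controls, and the change of 0.64 ± 0.12 missed the threshold of the quasi-likelihood test (adjusted p = 0.0598), whereas DESeq2 (adjusted p = 7.68e-05) and the likelihood ratio test (adjusted p = 0.00335) called it.

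Motors that act on chromosomes and on microtubule ends followed the same direction. Kif2c, a kinesin that does not walk but takes apart microtubule ends at centromeres and so corrects faulty attachments, was at 46.0 and 43.7 CPM in Lenti-GFP and at 61.7 and 63.4 CPM in Lenti-AS. It was called higher, by 0.48 ± 0.07 (adjusted p = 0.0389) and a fold of 1.39, with Lenti-AS 2 slightly the higher of its pair. Kif18a, which damps the movements of chromosomes at the metaphase plate, was at 18.5 and 18.8 CPM in Lenti-GFP and at 25.4 and 22.9 CPM in Lenti-AS. Its groups did not overlap, and its change of 0.37 ± 0.08 was not called (adjusted p = 0.081). Kif18b, which shortens astral microtubules, had few reads, with 5.83 and 4.62 CPM in Lenti-GFP and 9.96 and 8.37 CPM in Lenti-AS. It had the largest fitted change of the 10, 0.81 ± 0.17 or a fold of 1.75, with the widest error, and was not called in the quasi-likelihood fit (adjusted p = 0.0751), although DESeq2 (adjusted p = 0.00114) and edgeR's likelihood ratio test (adjusted p = 0.00601) called it. Kif22, which binds chromosome arms and pushes them from the poles, was at 123.5 and 119 CPM in Lenti-GFP and at 139.9 and 130.1 CPM in Lenti-AS. It had the smallest change of the 10, 0.15 ± 0.06 (adjusted p = 0.223), and its 95% interval (0.0025 to 0.30) was the only mitotic one that stayed inside a 1.3-fold change.

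The 3 kinesins of the central spindle and cytokinesis were all called higher. Kif20a, which brings the chromosomal passenger complex to the midzone, was at 105 CPM in both Lenti-GFP samples and at 146 and 143 CPM in Lenti-AS. It rose by 0.46 ± 0.05 (adjusted p = 0.0252), a fold of 1.37, and the samples within each group were nearly equal. Kif20b, a related motor needed late in cytokinesis, was at 48.8 and 49.6 CPM in Lenti-GFP and at 68.5 and 65.0 CPM in Lenti-AS, a change of 0.44 ± 0.07 (adjusted p = 0.0436). Kif23, the motor of the centralspindlin complex, was at 43.9 and 45.8 CPM in Lenti-GFP and at 58.9 and 59.3 CPM in Lenti-AS. Its adjusted p of 0.0499 for a change of 0.40 ± 0.07 lay at the threshold, and under the likelihood ratio test it was 0.0522. These 3 motors therefore had changes of about the same size, all with folds between 1.32 and 1.37.

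**Figure D2:**
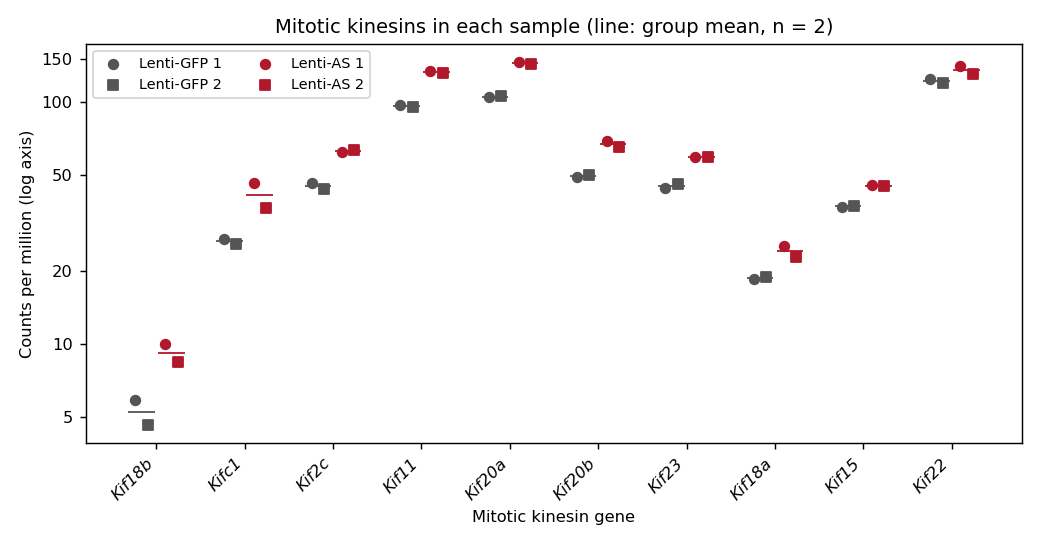
Level of each of the 10 mitotic kinesins in every sample, in CPM on a log axis, with grey points for Lenti-GFP, red points for Lenti-AS, circles for sample 1, squares for sample 2 and lines for the group means (n = 2). For every gene both red points lie above both grey points; the pairs of red points are most separated for Kifc1 and Kif18b.

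Summed over the 10 genes, mitotic kinesins took 553 and 545 CPM in Lenti-GFP and 736 and 704 CPM in Lenti-AS. As a share of all kinesin counts this was 19.6% and 19.3% in Lenti-GFP against 24.4% and 23.2% in Lenti-AS, so the share was higher in both Lenti-AS samples. The 2 Lenti-AS samples, which stood apart for Sox10 and Col1a1, differed less over most of these motors. The median absolute log2 difference between the Lenti-AS samples was 0.0571 over the 10 mitotic kinesins and 0.118 over the 10147 genes of the table with a mean of at least 100 counts. Between the Lenti-GFP samples the median difference was 0.0403 and 0.0683. These sets were not matched for depth, as the mitotic kinesins had mean counts from 621 (Kif18b) to 11218 (Kif22). Over the 12 transport kinesins with a mean of at least 100 counts it was 0.061 between the Lenti-AS samples. Kifc1, Kif18b and Kif18a were exceptions, with log2 differences of 0.34, 0.25 and 0.15 between the Lenti-AS samples. Lenti-AS 1 was nevertheless the higher of its pair in 8 of 10 mitotic kinesins.

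The transport kinesins did not share the direction of the mitotic ones. Of 14 tested, 0 were called in either direction by edgeR, where 1.98% of all genes tested were called (0.667% lower), and at an unadjusted p under 0.05 there were 3 with higher and 2 with lower values in Lenti-AS, against 12.5% and 9.37% of all genes tested. DESeq2, which called 488 genes higher and 139 lower in the whole table, called 1 of them, Kif1c. In DESeq2, Kifc3, Kif1b and Kif5b also had adjusted p-values under 0.05 (0.00136, 0.0169 and 0.0319). Their log2 changes there, -0.36, 0.20 and -0.18, were under the 1.3-fold cut-off, so these genes were not called. The fitted changes were above 0 in 7 and below 0 in 7, with a median of 0.03 (a fold of 1.02) and a range from -0.36 to 0.58. Both Lenti-AS samples lay above both Lenti-GFP samples in 6 genes and below in 4, against 27.7% and 27.2% of the whole table. The median moved with the samples used, from -0.08 without Lenti-AS 2 and -0.06 without Lenti-GFP 2 to 0.11 without Lenti-AS 1. For 8 of the 14 the 95% interval of the change stayed within a 1.3-fold difference either way. Summed, the transport kinesins took 1804 and 1816 CPM in Lenti-GFP and 1748 and 1753 CPM in Lenti-AS. The difference between the mitotic and transport kinesins was described by these values and not tested as one.

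Kif5b, the conventional kinesin heavy chain found in most cells, was at 840.3 and 876 CPM in Lenti-GFP and at 761 and 756 CPM in Lenti-AS. Neither Lenti-AS sample reached the lower control, and the log2 change of -0.18 (95% interval -0.31 to -0.05) did not pass the test (adjusted p = 0.137). Kifc3, a minus-end-directed motor of epithelial junctions and the Golgi, was at 111 and 103 CPM in Lenti-GFP and at 79.0 and 87.8 CPM in Lenti-AS. Its log2 change of -0.36 ± 0.08 was the lowest of the family (adjusted p = 0.0824, not called). Kif3b, a subunit of the kinesin-2 motor of cilia and vesicles, was at 107 and 111 CPM in Lenti-GFP and at 101 and 102 CPM in Lenti-AS, a difference of -0.11 ± 0.06 (adjusted p = 0.325). Without overlap of the groups, Kif5c too had lower values in Lenti-AS (37.1 and 37.3 against 40.6 and 42.0 CPM).

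The kinesin-3 motors named here had mixed values and 0 were called. Kif1b, which carries mitochondria and vesicle precursors, was at 236 and 227 CPM in Lenti-GFP and at 264 and 269.6 CPM in Lenti-AS. The groups did not overlap, and the change of 0.21 ± 0.05 was not called (adjusted p = 0.111). Kif13b, a motor that acts with Dlg1 in the control of SC myelination, was at 52.4 and 51.9 CPM in Lenti-GFP and at 59.5 and 60.5 CPM in Lenti-AS, a change of 0.20 ± 0.07 (adjusted p = 0.159). Kif1c, a vesicle motor, was at 74.2 and 69.0 CPM in Lenti-GFP and at 109.5 and 80.5 CPM in Lenti-AS. Its higher mean came mostly from Lenti-AS 1, and the change was 0.41 ± 0.14 (adjusted p = 0.188), or 0.17 without that sample. Kif13a, a motor of recycling endosomes, was at 109.9 and 103 CPM in Lenti-GFP and at 94.3 and 114 CPM in Lenti-AS, so that the Lenti-AS samples enclosed the controls. Its fitted change of -0.04 ± 0.10 turned to 0.09 without Lenti-AS 1. Kif21b and Kif5a, the latter a neuronal heavy chain, stayed under 1 CPM in every sample, and the interval of Kif5a, the transport kinesin with the highest fitted change, ran from -0.29 to 1.45.

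**Figure D3:**
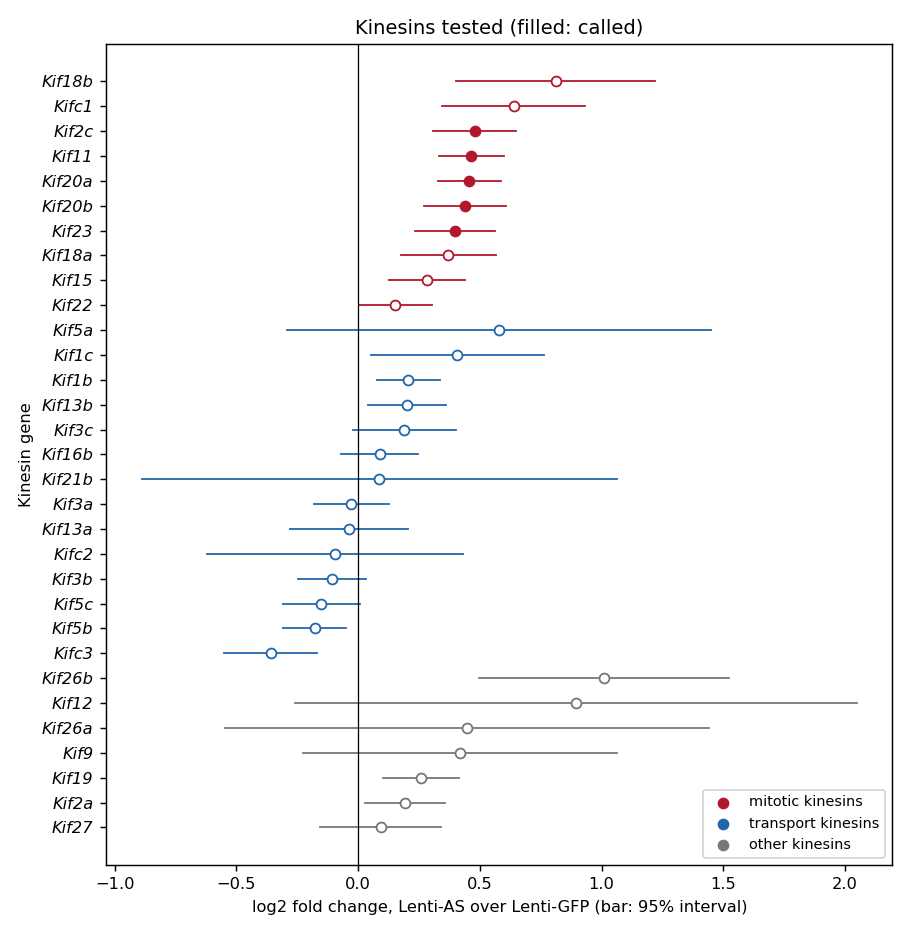
Fitted log2 fold change, Lenti-AS over Lenti-GFP, for the 31 kinesins tested, with bars for the 95% interval, colours for the 3 classes and filled points for genes that were called. The 10 mitotic intervals lie above 0, whereas transport intervals lie on both sides and 9 of 14 span 0.

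Of the 8 other kinesins 7 were tested, and 0 were called by the quasi-likelihood test. All 7 fitted changes were above 0, 5 of them without overlap of the groups (27.7% of all genes tested), and 3 genes (Kif19, Kif26b and Kif2a) had an unadjusted p under 0.05 (12.5% of all genes tested). Their median log2 change was 0.42, near the 0.45 of the mitotic kinesins, although 4 of the 7 intervals spanned 0. Kif26b, whose promoter is shown above, is a kinesin with an atypical motor domain that acts in Wnt5a-Ror signalling. It was at 2.64 and 2.62 CPM in Lenti-GFP and at 6.21 and 4.35 CPM in Lenti-AS. Its change of 1.01 ± 0.21, a fold of 2.01, was the largest of the family, on 246 to 544 counts per sample (adjusted p = 0.0755). It was called by DESeq2 and by edgeR's likelihood ratio test (adjusted p = 0.002 and 0.00405). Its relative Kif26a had another pattern, with 3.58 and 2.72 CPM in Lenti-GFP and 6.05 and 2.51 CPM in Lenti-AS. Lenti-AS 1 alone was high, Lenti-AS 2 was the lowest sample, and the log2 change went from 0.45 ± 0.41 with all samples to -0.33 without Lenti-AS 1. Kif19, which shortens microtubules at the tips of motile cilia, was at 424 and 421 CPM in Lenti-GFP and at 480.3 and 529.9 CPM in Lenti-AS. Here Lenti-AS 2 was the higher of the pair, and the change of 0.26 ± 0.06 was not called (adjusted p = 0.104). Kif2a, the relative of Kif2c that acts at spindle poles and in neurites, was at 20.2 and 20.7 CPM in Lenti-GFP and at 23.6 and 23.2 CPM in Lenti-AS, a change of 0.19 ± 0.07 (adjusted p = 0.176). The remaining members were Kif27 at 10.8 to 12.4 CPM, Kif9 and Kif12 with at most 92 and 19 counts in a sample, and Kif2b, with 0 to 3 counts, which was not tested.

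**Figure D4:**
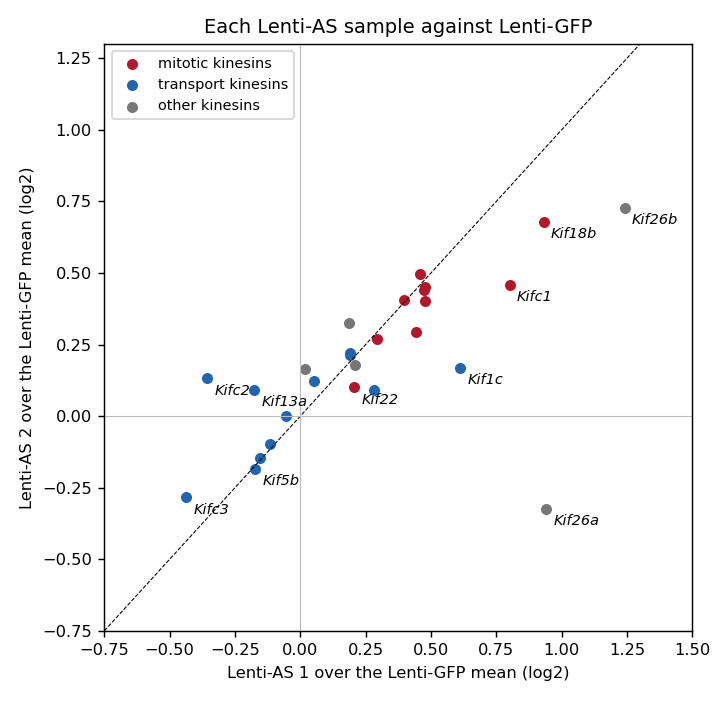
Each kinesin with a mean of at least 100 counts, plotted as the log2 ratio of Lenti-AS 1 (x axis) and of Lenti-AS 2 (y axis) to the Lenti-GFP mean, with a dashed line where both are equal. The mitotic kinesins lie above 0 on both axes (0.21 to 0.93 for Lenti-AS 1 and 0.10 to 0.68 for Lenti-AS 2), while Kif26a is at 0.94 on one and -0.33 on the other.

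Genes for proteins that the mitotic kinesins work with, or that drive mitosis, were mostly higher too. Of 18 such partners tested, 12 were called higher (Tpx2, Ccnb2, Prc1, Nusap1, Aurkb, Cdk1, Plk1, Bub1b, Ect2, Birc5, Racgap1 and Bub1) and 0 lower, with a median log2 change of 0.48. The shares over all genes tested were 1.31% called higher and 0.667% called lower. The list was drawn up with earlier results of these data known, so it is not independent evidence of the direction. Without either Lenti-GFP sample none of the 12 was called, since 0 genes of the whole table were called higher. Tpx2, which targets Aurora A and Kif15 to the spindle, was at 66.5 and 68.8 CPM in Lenti-GFP and at 100 and 107 CPM in Lenti-AS (log2 change 0.61, adjusted p = 0.0236). Ccnb2, a cyclin partner of Cdk1, was at 43.0 and 45.6 CPM in Lenti-GFP and at 71.8 and 67.6 CPM in Lenti-AS (0.65, adjusted p = 0.0252). Prc1, the antiparallel microtubule crosslinker of the midzone, was at 175 and 180.2 CPM in Lenti-GFP and at 242 and 237 CPM in Lenti-AS (0.43, adjusted p = 0.0264). Racgap1, which forms centralspindlin together with Kif23, had a log2 change of 0.53 ± 0.09 (adjusted p = 0.0499). The exception in the list was Numa1, a spindle pole protein that also sits in the interphase nucleus, whose change was -0.0021 ± 0.07.

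No call was found among 20 partners of the transport kinesins (kinesin light chains, cargo adaptors and Arl8 or Miro proteins), 25 subunits and regulators of dynein and dynactin, and 15 tubulins. Over all genes tested 1.98% were called in either direction, a share at which lists of this size would hold few calls. At an unadjusted p under 0.05 these lists held 3, 1 and 6 genes with higher values and 0, 4 and 2 with lower values, against 12.5% and 9.37% of all genes tested. The 15 tubulins thus had 8 genes at this cut-off, in both directions, with none that passed the adjusted test. Their median log2 changes were 0.04, -0.04 and 0.07. Dynein is the minus-end-directed motor that works against kinesins on the same tracks, and tubulins are the tracks themselves.

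**Figure D5:**
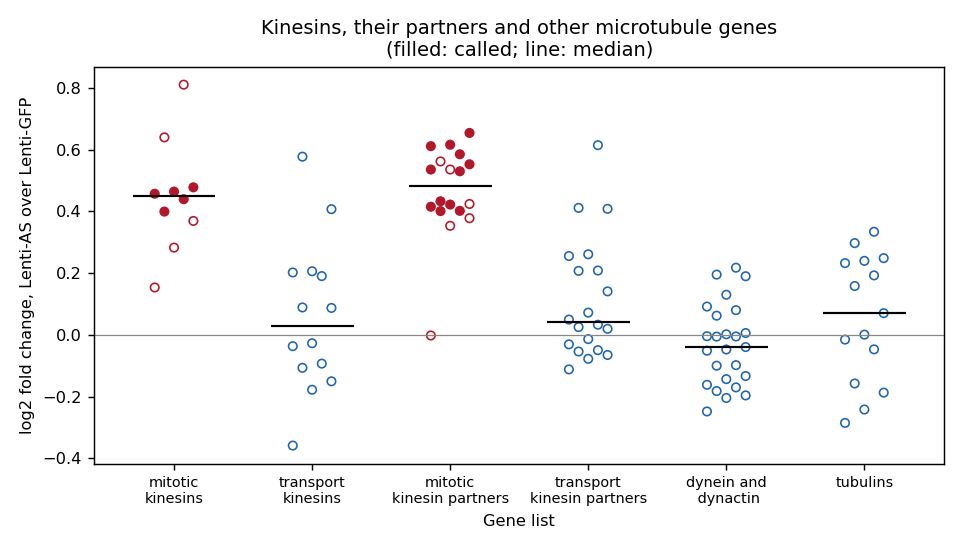
Fitted log2 fold change of each tested gene in 6 lists of microtubule genes, with filled points for genes that were called and a line at each list's median. Filled points occur in the mitotic kinesins (5 of 10) and their partners (12 of 18) and in none of the other 4 lists.

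Markers of cells other than SCs were read beside these results. The summed fibroblast markers were 4521 and 4049 CPM in Lenti-GFP and 4897 and 3093 CPM in Lenti-AS, overlapping between groups. Col3a1, the marker with the most counts, was lower in both Lenti-AS samples (2198 and 2400 CPM against 3261 and 2955 CPM, log2 change -0.43, adjusted p = 0.052, not called). Of the 5 fibroblast markers tested it alone had a fitted change below 0. The other 4 were above 0, with overlapping groups. Dcn, Lum, Thy1 and Fap were nearly absent, under 0.1 CPM in every sample. Other fibroblast markers were well detected. Col1a1 was at 840.5 and 721 CPM in Lenti-GFP, beside the Lenti-AS values given above. Col1a2 was at 155 and 133.5 CPM in Lenti-GFP and at 340 and 120 CPM in Lenti-AS. Pdgfrb was at 262 and 236 CPM in Lenti-GFP and at 224.5 and 279 CPM in Lenti-AS. The 9 macrophage markers summed to 3.37 to 3.43 CPM in Lenti-GFP and to 3.99 to 4.42 CPM in Lenti-AS, and 6 endothelial markers to 20.9 to 21.1 and 15.6 to 16.2 CPM, nearly all of it Tek. Neuron markers summed to 201 and 211 CPM in Lenti-GFP and to 158.5 and 163 CPM in Lenti-AS, with Rbfox3 under 0.1 CPM. Of the 5 tested, 4 had fitted changes below 0. Nefl was called lower (adjusted p = 0.0303), where 0.667% of all genes tested were. Syp went the other way at 0.0633 to 0.293 CPM, with a log2 change of 1.68 (adjusted p = 0.131, not called). The SC markers had fitted changes in the same direction as the mitotic kinesins. All 7 reported here were above 0 with a median log2 change of 0.33. In 5 both Lenti-AS samples lay above both Lenti-GFP samples (27.7% of all genes tested), and 5 had an unadjusted p under 0.05 with higher values (12.5%). Only Mbp was called higher (adjusted p = 0.0428), where 1.31% of all genes tested were. Their sum was 4017 and 3900 CPM in Lenti-GFP and 5485 and 4349 CPM in Lenti-AS. The part of these markers in the kinesin results was not tested. On GRCr8, 6 of the 10 mitotic kinesins overlap another annotated gene (for example Kif11 and Ide, Kif20a and Cdc23). Kif2c, Kif23, Kif18b and Kifc1 overlap none. Transport kinesins such as Kif5b, Kif1b and Kifc3 overlap other genes too. Whole genes were compared here, whereas the paper's methods describe counting over exons of rn6. Where exons are shared, which was not checked, reads cannot be assigned with certainty without the strand setting of the counting.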

How the data were processed

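RNA-seq of 4 rat SC samples was analysed. The deposited values are the authors' raw counts per gene. The submitters' processing notes name GSNAP, featureCounts and the builds rn6 and Rnor_6.0, the paper's methods name hisat2, and how strand and multiply mapped reads were handled is not given in the sources used here. A row repeating the header was dropped, and 1623 genes had 0 counts throughout. Samples were grouped from their labels. After a filter (10 counts or more in 2 or more samples), edgeR 4.0.16 under R 4.3.3 was run with TMM factors, glmQLFit and glmQLFTest, with Benjamini-Hochberg adjustment over 12446 genes. The biological coefficient of variation was 12.1%. Each SE came from its F statistic. The smallest two-sided p that permuting 2 against 2 samples allows is 0.333. The fit was tested on simulated data.

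The kinesin members, their classes and the other lists were chosen with earlier results of these data known. Named were all mitotic kinesins, other kinesins that were called or that had separate groups and an unadjusted p under 0.05, the 4 transport kinesins with the highest mean CPM, and the 2 largest changes each way outside the mitotic list with a mean of at least 100 counts. Other members named were chosen after their values were seen. Alternatives were DESeq2 1.42.0, limma-voom (limma 3.58.1), other scalings, filters, tests, cut-offs, a replicate block and leaving out each sample. Promoters are from RefSeq (GRCr8). Values of 1 SC marker are not reported here.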

Additional observations from a re-analysis of the deposited data

How the results depend on the processing

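Each group has 2 samples. Without either Lenti-GFP sample, 0 genes of the whole table were called higher, so calls for single kinesins rest on both controls. Over the fits that left out 1 sample, mitotic kinesins called higher ranged from 0 to 8, transport kinesins called from 0 to 2 (Kif1c and Kifc3), all kinesins called from 0 to 12, the median log2 change of mitotic kinesins from 0.42 to 0.47, and that of transport kinesins from -0.0844 to 0.11. Kif13a ranged from -0.18 to 0.0912 over these fits, with 0.0112 without Lenti-GFP 1 and 0.0912 without Lenti-AS 1, and Kif26a from -0.33 without Lenti-AS 1 to 0.94. DESeq2 called 7 mitotic kinesins, 1 transport kinesin (Kif1c) and 9 kinesins in all. It also called more genes of the whole table, 488 higher and 139 lower against 163 and 83 in the quasi-likelihood fit. With the replicate number as a block, 0 mitotic kinesins and 0 kinesins in all were called, in a fit that called 3 genes higher and 14 lower in the table. The correlation of the deviations of samples with the same number was -0.02 over the table and 0.26 over the kinesins with a mean of at least 100 counts, and no source ties a number to a shared animal or day, so the pairing is not established. A fold of at least 1.5 left 0 kinesins called and 0 mitotic ones, as did an adjusted p under 0.01. With library totals in place of scaling factors the mitotic median was 0.48, where the median of all genes was 0.04. The transport median was -0.0286 with a filter of 1 CPM, which drops Kif21b and Kif5a, and 0.0889 without Kif21b, Kifc2 and Kifc3. In every one of the 15 alternative fits run, 10 of 10 mitotic kinesins had a fitted change above 0. The cause of these differences was not tested.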
